A study of Mus musculus with 24 samples.

Results

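The 2-5 oligoadenylate synthetase (Oas) family was followed through 24 RNA-seq libraries of mouse bone marrow-derived macrophages (BMDMs). Its members were chosen by name, as the rows of the deposited table whose gene symbol was Oas1a, Oas1b, Oas1c, Oas1g, Oas2, Oas3, Oasl1 or Oasl2, which gave 8 of the 24273 genes in the table. All 8 passed the filter on low values and were among the 13901 genes tested.

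BMDMs are macrophages grown from bone marrow, here from C57BL/6 mice, in L-cell conditioned medium. The control libraries were labelled LysM-Cre and the others FosKO, for mice with LysM-Cre and 2 floxed Fos alleles. Cells of both were held overnight in medium with little serum and then left untreated (0 h) or stimulated with bacterial LPS, which TLR4 senses (100 ng/ml, for 0.5, 1 or 2 h), and each of these 8 groups had 3 libraries. Sources differ on the controls, which are plain LysM-Cre in the series' design and heterozygous for floxed Fos in the study, and which applied is not known here. LysM-Cre is a Cre recombinase placed at Lyz2, the lysozyme gene of myeloid cells, and by the labels and design both genotypes carry it. The ages of the mice were not given in the sources used here, and no label says whether libraries of a group came from separate animals, so a p-value measures the spread between these libraries.

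OAS proteins are made in response to IFN and bind double-stranded RNA, a product of virus replication. When bound they join ATP into 2-5A, short chains of adenylate with an unusual 2′-5′ linkage, a second messenger of the antiviral response that other enzymes degrade. Type I IFN reaches these genes through ISGF3, a complex that contains STAT2 and IRF9 and binds the IFN-stimulated response element in their promoters.

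All 8 members lay on chromosome 5 of the mm10 (GRCm38) build. The Oasl pair stood apart, Oasl2 (ENSMUSG00000029561) from 114896936 to 114912234 and Oasl1 (ENSMUSG00000041827) from 114923240 to 114937915, both on the plus strand. The other 6 lay in a cluster that ran from the end of Oas2 (ENSMUSG00000032690), at 120730333, to the start of Oas1a (ENSMUSG00000052776), at 120907521. Between these lay Oas3 (ENSMUSG00000032661, 120753098 to 120777661), Oas1c (ENSMUSG00000001166, 120800194 to 120812514), Oas1b (ENSMUSG00000029605, 120812635 to 120824163) and Oas1g (ENSMUSG00000066861, 120876142 to 120887613). Of these 6, only Oas1b was on the plus strand. GENCODE classes Oas1b as a polymorphic pseudogene, and the other 7 members as protein coding. Oas1b and Oas1c pointed away from each other, with start sites 121 bases apart.

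Promoter windows from RefSeq (GRCm38.p6), 250 bases before to 50 after the start, were found for 6 members, namely Oas1a, Oas1c, Oas1g, Oas3, Oasl1 and Oasl2. They were searched on both strands for GAAANNGAAA, the core of the IFN-stimulated response element, and for TGANTCA, the site of AP-1 factors such as FOS. Of all 32851 promoter windows, 3.44% held the first and 7.81% the second. The 5 windows below show which members hold these letters, with matches in capitals, and Oasl1 is included as one with no match. Oas1a and Oas1g, on the minus strand at chr5:120907476-120907775 and chr5:120887564-120887863, each held a pair of overlapping matches to GAAANNGAAA just before the start, and shared an unbroken run of 73 bases.

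Oas1a: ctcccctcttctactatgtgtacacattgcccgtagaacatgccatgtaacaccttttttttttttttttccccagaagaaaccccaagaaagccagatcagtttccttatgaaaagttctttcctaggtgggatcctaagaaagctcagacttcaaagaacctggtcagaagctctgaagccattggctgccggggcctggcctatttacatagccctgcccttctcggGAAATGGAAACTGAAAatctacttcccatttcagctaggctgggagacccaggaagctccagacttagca

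Oas1g: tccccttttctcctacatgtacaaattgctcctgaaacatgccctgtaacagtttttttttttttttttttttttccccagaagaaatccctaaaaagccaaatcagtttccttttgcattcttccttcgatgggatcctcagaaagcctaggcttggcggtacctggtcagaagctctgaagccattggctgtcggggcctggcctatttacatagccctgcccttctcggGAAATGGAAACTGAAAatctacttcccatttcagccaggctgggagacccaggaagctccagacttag

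The Oas1c window, on the minus strand at chr5:120812465-120812764, held the same 16 bases in reverse. This window also covers the start of Oas1b, and read in the direction of Oas1b those bases ran from 22 to 7 bases before its start, much as the pair ran from 20 to 5 bases before the start of Oas1a.

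Oas1c: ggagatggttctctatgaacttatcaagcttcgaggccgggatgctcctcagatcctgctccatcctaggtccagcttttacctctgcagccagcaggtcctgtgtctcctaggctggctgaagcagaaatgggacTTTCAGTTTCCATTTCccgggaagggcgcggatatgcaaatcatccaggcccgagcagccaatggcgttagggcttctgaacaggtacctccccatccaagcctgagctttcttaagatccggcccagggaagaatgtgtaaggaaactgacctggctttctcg

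Oas3, on the minus strand at chr5:120777610-120777909, held 1 match to GAAANNGAAA and 2 to TGANTCA, which reads the same on both strands.

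Oas3: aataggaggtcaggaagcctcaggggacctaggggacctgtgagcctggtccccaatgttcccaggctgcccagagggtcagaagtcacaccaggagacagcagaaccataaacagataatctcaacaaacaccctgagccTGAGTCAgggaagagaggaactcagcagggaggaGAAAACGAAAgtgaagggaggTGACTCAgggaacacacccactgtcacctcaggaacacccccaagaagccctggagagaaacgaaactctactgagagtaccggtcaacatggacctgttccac

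Oasl1, on the plus strand at chr5:114922990-114923289, held neither, as did Oasl2. With the looser AANNGAAA, which is part of GAAANNGAAA and stood in 23.92% of all windows, Oasl1 had 3 matches, and Oasl2 had none. A match is a string of letters, and binding was not measured.

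Oasl1: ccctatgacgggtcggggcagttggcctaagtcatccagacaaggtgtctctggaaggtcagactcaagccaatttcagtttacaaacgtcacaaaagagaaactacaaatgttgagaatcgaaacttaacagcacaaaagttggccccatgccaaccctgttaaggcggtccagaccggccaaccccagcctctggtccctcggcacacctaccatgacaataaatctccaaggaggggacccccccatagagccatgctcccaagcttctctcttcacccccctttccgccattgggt

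Values are deposited log2 values, so that a difference of 1 is a doubling, and errors of group means are SD over 3 libraries. The study gives a typical sequencing yield, but the number of reads behind each value is unknown, and no counting interval was computed. Groups were compared with limma over all tested genes, with Benjamini-Hochberg adjustment, and calls needed an adjusted p below 0.05. Fos, the targeted gene, stood at 12.60 ± 0.17 (n = 3) in untreated libraries labelled FosKO and at 11.11 ± 0.05 in untreated controls. After 0.5 h the order was turned, with 12.75 ± 0.09 against 13.52 ± 0.08 in controls, a difference of -0.77 (SE 0.09, limma adjusted p = 5.93e-07). After 1 h Fos was at 12.78 ± 0.10 and 11.15 ± 0.17, and after 2 h at 12.80 ± 0.13 and 9.52 ± 0.10. It was thus lower in libraries labelled FosKO at 0.5 h and higher at the other 3 times (adjusted p at most 1.15e-10). From 0 to 0.5 h it rose by 2.41 in controls (adjusted p = 1.61e-14), against a change of 0.15 in libraries labelled FosKO that was not called (adjusted p = 0.396). One value per gene cannot show whether floxed exons were lost, so the genotypes are taken from the labels alone. Lyz2, the locus that carries the Cre, was at 16.10 ± 0.02 in libraries labelled FosKO at 0 h and at 10.94 ± 0.09 in those labelled LysM-Cre. Its log2 differences between genotypes were 5.17, 4.89, 4.98 and 5.06 at 0, 0.5, 1 and 2 h. At each time no tested gene gave a higher one. All 8 macrophage markers were found, and their summed level on the log2 scale ran from 17.32 to 17.56 in libraries labelled LysM-Cre and from 17.28 to 17.66 in those labelled FosKO. The summed level of 6 dendritic cell markers was 11.31 to 11.75 and 12.33 to 12.77, with Flt3 and Siglech under the floor for testing in every library, and that of 5 T cell markers was 7.60 to 7.91 and 8.01 to 8.45, with Cd3d, Cd3e, Cd8a and Trac under it. Bst2, itself an IFN-stimulated gene, and Cd4 were the markers of the 2 lists called higher at 0 h, by 0.91 and 0.42. The neutrophil markers overlapped, with a sum of 5.68 to 6.68 in libraries labelled LysM-Cre and 5.12 to 5.80 in those labelled FosKO, and with Cxcr2, Elane and Ly6g under the floor. S100a8 and S100a9 were called lower, with log2 differences of -0.47 and -0.81 before LPS and -0.60 and -1.07 after 2 h. Of the macrophage markers, Mertk, a receptor for dying cells, gave 0.97 before LPS and 1.65 after 2 h, Fcgr1 0.65 and 0.73, and Cd68 0.21 and 0.17, all called higher. Itgam (ENSMUSG00000030786), Cd14, Adgre1 and Csf1r were called lower before LPS, with differences of -0.19, -0.22, -0.15 and -0.14. After 2 h none of these 4 was called lower and Cd14 was called higher (0.14), while Zbtb46 of the dendritic cell list (-0.96), Cd79b of the B cell list (-0.26) and Col3a1 of the fibroblast list (-0.53) were lower. The sums of the dendritic and T cell lists were higher with the FosKO label as the Oas genes were. The part of these markers in the results was not tested, and in bulk RNA a change in a cell type's share and in its RNA per cell cannot be told apart. Ribosomal 18S RNA split the libraries treated for 0.5 and 1 h, with Rn18s-rs5 at 16.65 to 17.00 in 5 of them, from both genotypes, and at 18.57 to 19.39 in the other 19 libraries of the series.

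Per kilobase of the longest listed transcript, on the log2 scale, the levels in untreated libraries labelled LysM-Cre spanned the family. Oasl2, a member with a ubiquitin-like tail, stood highest at 11.21 ± 0.06, above Oas1a at 11.01 ± 0.08 and Oas3 at 10.58 ± 0.09. Oas1g was at 9.05 ± 0.06, Oas2 at 8.83 ± 0.11 and Oasl1 at 7.94 ± 0.05. Oas1b, at 6.42 ± 0.12, and Oas1c, at 6.29 ± 0.05, were the lowest, and their libraries overlapped, whereas each other neighbouring pair in this order was apart. After 2 h of LPS in libraries labelled FosKO, Oasl1 had reached 11.87 ± 0.04 per kilobase, and its libraries overlapped those of Oas1a, at 11.96 ± 0.07, behind Oasl2 at 12.41 ± 0.06. Levels of Oas1a and Oas1g are uncertain, because 57.6% of the 50-base windows of the Oas1a transcript also stood in transcripts of another gene, Oas1g foremost, and 54.7% of those of Oas1g, Oas1a foremost. The share was 10.7% for Oas1c, 3.2% for Oas1b, 0.5% for Oas3 and 0 for Oas2, Oasl1 and Oasl2.

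The first question was whether the family differed between the genotypes, before and after LPS. It did, as a group and before any LPS was given. Libraries labelled FosKO also differed from controls in Lyz2 at each time. The part of Fos in the differences below cannot be told apart from that. At 0 h all 8 members were higher in libraries labelled FosKO, by between 0.33 for Oas1c and 1.10 for Oasl1 on the log2 scale, with a median of 0.68 against 0.00 for all tested genes. Of all tested genes, 19.5% were called higher in this comparison. At 0.5 h all 8 were higher (median 0.79, range 0.46 to 1.42, with 21.2% of tested genes called higher), and at 1 h all 8 (0.69, 0.33 to 1.69, with 18% called higher). At 2 h 7 of 8 were higher (0.64, 0.08 to 0.93, with 24.4% called higher), Oas1b being the exception.

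The plot of values by library shows this separation, and the differing courses of the members over time.

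**Figure D1:**
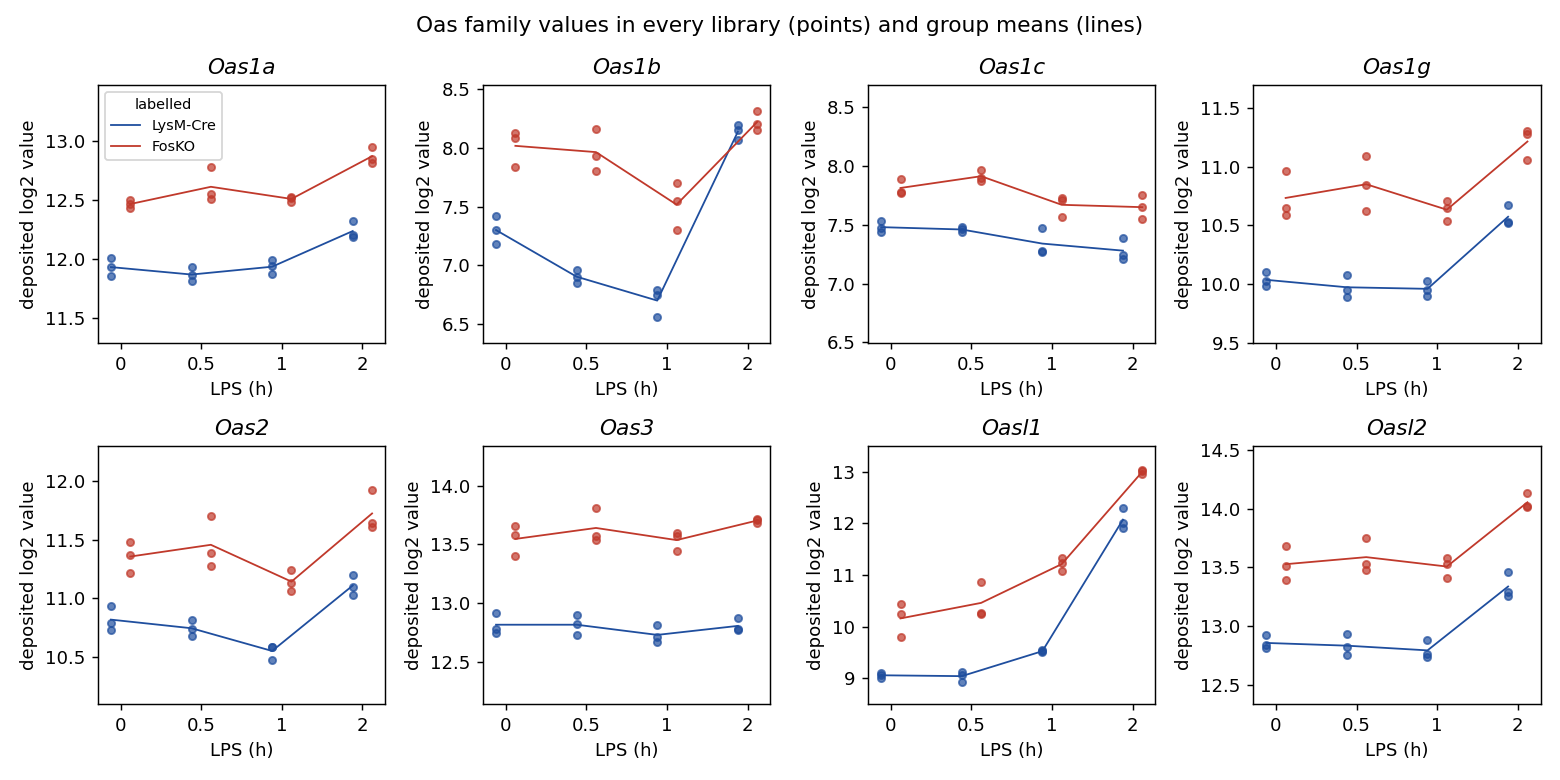
Deposited log2 values of the 8 Oas members in every library (points) and group means (lines) at 0, 0.5, 1 and 2 h of LPS, in blue for libraries labelled LysM-Cre and in red for those labelled FosKO; the axis of Oasl1 spans more than the others. The red points lie above the blue ones in every panel at each time, except for Oas1b at 2 h.

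Among the synthetases proper, Oas1a is a single-unit enzyme of the cluster. Its values in libraries labelled LysM-Cre were 12.01, 11.93 and 11.85 before LPS and 12.19, 12.20 and 12.32 after 2 h of it. In those labelled FosKO they were 12.43, 12.47 and 12.50 before LPS and 12.85, 12.82 and 12.95 after 2 h. The genotypes did not overlap at either time, and untreated libraries labelled FosKO lay above the LPS-treated controls. The difference was 0.54 (SE 0.06, limma adjusted p = 4.33e-07) at 0 h and 0.63 (adjusted p = 2.75e-08) at 2 h, the first a ratio of 1.45.

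Oas3, the longest member, is made of repeated OAS units and is known as the main source of 2-5A in several human cell types. It stood at 12.92, 12.78 and 12.75 before LPS and at 12.78, 12.77 and 12.87 after 2 h in libraries labelled LysM-Cre. The libraries labelled FosKO gave 13.40, 13.58 and 13.66 before LPS and 13.68, 13.72 and 13.71 after 2 h. All 3 libraries labelled FosKO were above all 3 controls at both times, and the change with LPS at 2 h was not called in either genotype, at -0.01 in libraries labelled LysM-Cre and 0.16 in those labelled FosKO, although quantile normalisation gave a called fall in both (-0.32 and -0.31) and median centring a called rise of 0.21 in the latter. The value of 0.16 ran from 0.08 (without FosKO 0 h replicate 1) to 0.22 (without FosKO 0 h replicate 3, where it was called) on leaving out single libraries. With the replicate number fitted as a block (replicate block), over all libraries or within genotype, the change of 0.16 was also called. The difference of 0.73 (SE 0.07, adjusted p = 1.09e-07 by limma) at 0 h was 0.90 (adjusted p = 3.21e-09) at 2 h.

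Of the other members, Oas1g, Oas2 and Oasl2 gave differences of 0.54 to 0.70 at 0 h. Oas1g, the near copy of Oas1a, went from 10.03 ± 0.06 in libraries labelled LysM-Cre to 10.73 ± 0.20 in those labelled FosKO, and Oas2, which also has repeated OAS units, from 10.82 ± 0.11 to 11.36 ± 0.13. Oasl2 went from 12.86 ± 0.06 to 13.53 ± 0.15. Oas1c had the smallest difference, 0.33, from 7.48 ± 0.05 to 7.81 ± 0.07, though its groups still did not overlap. Each of these 4 differences was called, with limma adjusted p between 8.77e-07 for Oasl2 and 0.000497 for Oas1c.

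Counted by overlap, all libraries labelled FosKO lay above all those labelled LysM-Cre in 8 of 8 members at 0 h, 0.5 h and 1 h and in 7 of 8 at 2 h. The corresponding shares of all tested genes were 24%, 25.9%, 23.7% and 28.9%. Oas1a and Oas1g share sequence and may draw in part on the same reads, so their counts may not be separate. The smallest gap at 0 h, between the highest control and the lowest library labelled FosKO, was 0.24, for Oas1c. Single libraries moved the whole family up or down. At 0.5 h replicate 3 of the FosKO label was the highest of its group in all 8 members, and at 0 h replicate 1 was the lowest in all 8. Leaving out each library in turn, or any other alternative tried, changed none of the calls between genotypes. Within the libraries with much 18S RNA, all 8 differences were positive at 0.5 h, from 0.47 to 1.56, and at 1 h, from 0.44 to 1.77, where only 1 library labelled LysM-Cre was left. Within those with little of it they ran from 0.44 to 1.12, with 1 library a genotype, and from 0.21 to 1.53, with 1 library labelled FosKO. These are values with no test.

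**Figure D2:**
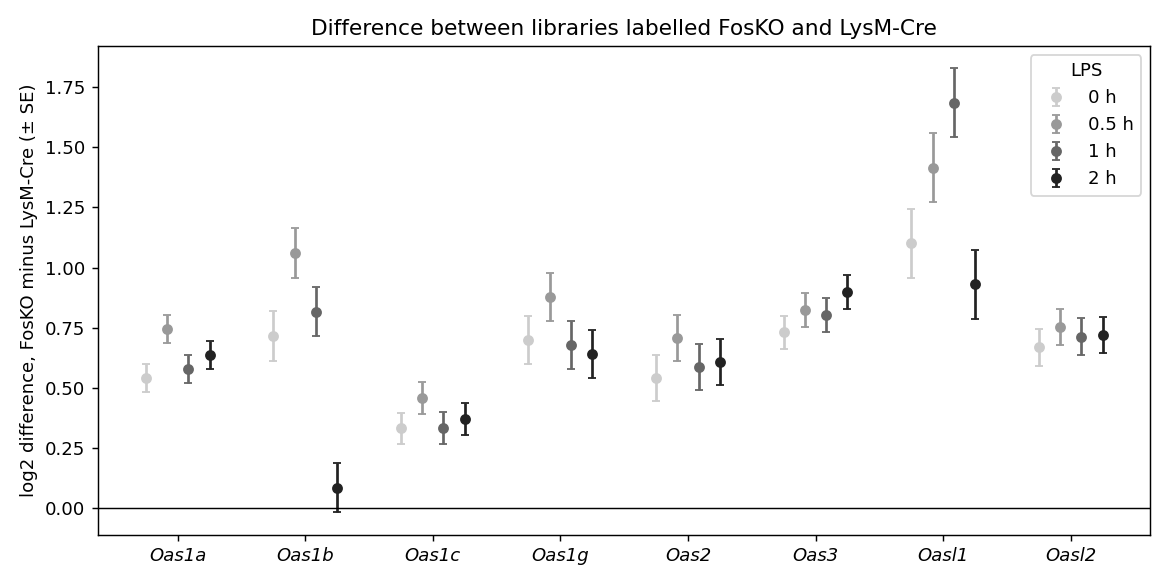
Log2 difference between libraries labelled FosKO and LysM-Cre for each member at 4 times, with bars of 1 SE from limma, and 3 libraries in each group. Differences at 0 h run from 0.33 to 1.10, Oasl1 peaks at 1.69 at 1 h, and Oas1b falls to 0.08 at 2 h.

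The second question was how the members answered LPS itself. At 0.5 h almost nothing had moved. Of the 8 members, 1 (Oas1b) was called lower in libraries labelled LysM-Cre, where 2.15% of tested genes were, and none was called higher by limma or had an unadjusted p under 0.05 in that direction. In those labelled FosKO limma called none in either direction, where 5.92% of tested genes were called, and 1 member (Oas1a, 0.14) had an unadjusted p under 0.05, with 0.06 to 0.19 on leaving out single libraries, the lowest without FosKO 0.5 h replicate 3. Medians were -0.04 and 0.10.

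At 1 h Oasl1 was the one member called higher in each genotype, where 19.2% of tested genes were called higher in libraries labelled LysM-Cre and 17.6% in those labelled FosKO. Oas1b and Oas2 were called lower in the former (16.5% of tested genes) and Oas1b in the latter (15% of tested genes). Oas2 fell by 0.26 (SE 0.10, limma adjusted p = 0.0374) in libraries labelled LysM-Cre, and gave -0.22 (adjusted p = 0.0937) in those labelled FosKO, where it was called without FosKO 0 h replicate 1 (-0.28, adjusted p = 0.0453) and with quantile normalisation (-0.33, adjusted p = 0.00368). Both replicate blocks called the fall of Oas2 in libraries labelled FosKO too. Under quantile normalisation 5 members were called lower in either genotype. The call of Oas2 in libraries labelled LysM-Cre was lost without any single one of 5 of the 6 libraries compared (all but LysM-Cre 0 h replicate 2), with changes of -0.20 to -0.28.

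At 2 h 6 members were called higher in libraries labelled LysM-Cre, where 30.6% of tested genes were, and 5 in those labelled FosKO, where 32.6% were, although under quantile normalisation either count was 3, and with median centring the second was 7. Oas1c was the member called lower in each genotype, so that 7 and 6 members were called in either direction, as were 60.8% and 62.1% of tested genes. It fell by 0.20 (SE 0.07, limma adjusted p = 0.0118) in libraries labelled LysM-Cre and by 0.16 (adjusted p = 0.0394) in those labelled FosKO. Each call was lost without some single libraries, LysM-Cre 0 h replicate 1 or 2 h replicate 3 in the first (-0.18 and -0.17) and FosKO 0 h replicate 3 or 2 h replicate 2 or 3 in the second (-0.12, -0.11 and -0.16). Under quantile normalisation neither was called (-0.10, adjusted p = 0.215, and -0.03, adjusted p = 0.674, by limma). The call in libraries labelled FosKO was also lost with median centring (-0.10, limma adjusted p = 0.176) or with no filter. It was lost too with only the groups compared and with the replicate block within genotype. Oas1a, Oas1g, Oas2 and Oasl2 rose by 0.29 to 0.54 in libraries labelled LysM-Cre and by 0.36 to 0.53 in those labelled FosKO, with Oas1g the largest in the former and Oasl2 in the latter. The rises of Oas1a, Oas2 and Oasl2 were not called under quantile normalisation in either genotype (0.03, 0.11 and 0.12 with the LysM-Cre label, 0.05, 0.09 and 0.04 with the FosKO label, limma adjusted p 0.133 to 0.626). The rise of Oas1g kept its call (0.41 and 0.25), and the change of Oas1b in libraries labelled FosKO gained one (0.28, adjusted p = 0.0186), as it did with median centring (0.26, adjusted p = 0.0316). For Oas2 in libraries labelled LysM-Cre the call was lost without 0 h replicate 2 or 2 h replicate 3, each with a rise of 0.25. Of the 4 dendritic cell markers tested, 3 were also called higher after 2 h in libraries labelled LysM-Cre (Zbtb46 2.24, Xcr1 1.85 and Ccr7 0.74) and all 4 in those labelled FosKO (1.39, 1.56, 0.39 and Bst2 0.21), with list medians of 1.29 and 0.89. Both neutrophil markers tested were called higher in each, S100a8 by 0.51 and 0.38 and S100a9 by 0.90 and 0.64. The part of these markers in the LPS changes was not tested. The members' medians were 0.39 and 0.38, against -0.02 and 0.00 for all tested genes.

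Oasl1 stood apart from the family. It encodes a protein with no known 2-5A synthesis that is known to hold back translation of Irf7. In libraries labelled LysM-Cre its values were 9.06, 9.11 and 9.01 before LPS, 9.51, 9.54 and 9.53 after 1 h, and 11.91, 12.01 and 12.29 after 2 h. In libraries labelled FosKO they were 9.80, 10.25 and 10.43 before LPS, 11.07, 11.23 and 11.33 after 1 h, and 13.01, 12.95 and 13.03 after 2 h. Thus every library labelled FosKO was above every control of its time, and the levels at 2 h were the highest within each genotype.

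The rise of Oasl1 at 2 h was 3.01 (SE 0.14, adjusted p = 1.59e-13 by limma) in libraries labelled LysM-Cre and 2.84 (adjusted p = 3.78e-13) in those labelled FosKO, or 8.04-fold and 7.15-fold. At 1 h it was 0.46 (adjusted p = 0.0157) and 1.05 (adjusted p = 6.29e-06). The rise at 1 h in libraries labelled LysM-Cre was not called without LysM-Cre 0 h replicate 3 (0.44, adjusted p = 0.05003) or with only the libraries with much 18S RNA (0.45, adjusted p = 0.152), which left 1 library at 1 h, taken to vary like the other groups. The difference between the genotypes in this response was 0.59 at 1 h (SE 0.20, limma adjusted p = 0.303), with 1.22% of tested genes called in either direction, and -0.17 at 2 h (SE 0.20, adjusted p = 0.658), so neither was called. Without single libraries these ran from 0.41 to 0.72 and from -0.35 (without FosKO 0 h replicate 1) to -0.04 (without FosKO 0 h replicate 3). The rise over 1 h is thus not shown to differ between genotypes.

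**Figure D3:**
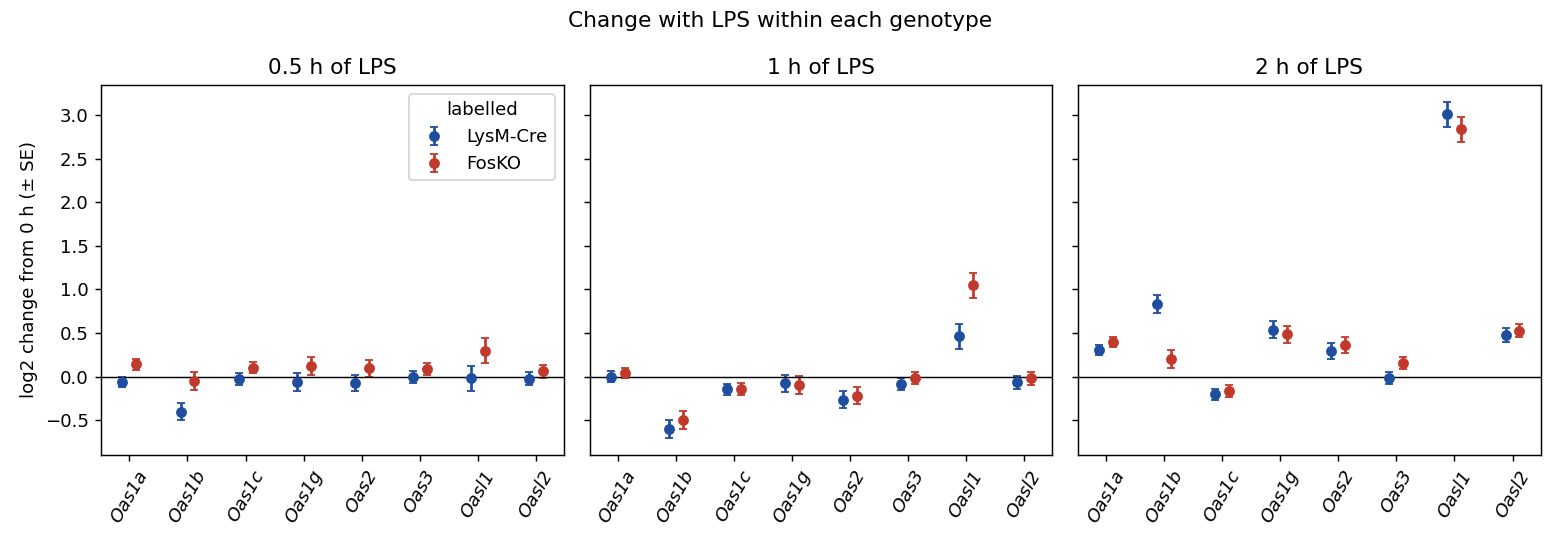
Log2 change from 0 h for each member at 0.5, 1 and 2 h of LPS within libraries labelled LysM-Cre (blue) and FosKO (red), with bars of 1 SE from limma and 3 libraries in each group. Oasl1 reaches 3.01 and 2.84 at 2 h, and Oas1b is 0.84 in blue and 0.20 in red.

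Oas1b was the one member called lower in both genotypes at 1 h, and its response to 2 h of LPS differed between them. Oas1b is the gene of the mouse flavivirus resistance locus, and most laboratory strains carry a premature stop codon in it. In libraries labelled LysM-Cre it gave 7.42, 7.18 and 7.30 before LPS, 6.90, 6.96 and 6.85 after 0.5 h, 6.79, 6.75 and 6.56 after 1 h, and 8.07, 8.15 and 8.19 after 2 h. In libraries labelled FosKO it gave 7.84, 8.13 and 8.08 before LPS, 7.80, 7.93 and 8.16 after 0.5 h, 7.30, 7.55 and 7.70 after 1 h, and 8.20, 8.15 and 8.31 after 2 h. The genotypes were apart at the first 3 times and overlapped at 2 h. The difference between them was 0.72, 1.06 and 0.82 at 0, 0.5 and 1 h (SE 0.10, highest limma adjusted p = 1.46e-05) and 0.08 at 2 h (adjusted p = 0.549), the last 0.04 (without FosKO 2 h replicate 3) to 0.12 on leaving out single libraries.

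Within libraries labelled LysM-Cre, Oas1b fell by 0.40 at 0.5 h (SE 0.10, limma adjusted p = 0.0182) and by 0.60 at 1 h (adjusted p = 8.35e-05), then stood 0.84 above its untreated level at 2 h (adjusted p = 4.53e-07). The call at 0.5 h was lost without 0 h replicate 1 or 3 or 0.5 h replicate 1 or 3 (-0.34 to -0.40, adjusted p 0.052 to 0.107). Within those labelled FosKO the changes were -0.05 (adjusted p = 0.830), a fall of 0.50 (adjusted p = 0.000647) and 0.20 (adjusted p = 0.0917). The last was 0.12 to 0.26 without single libraries, the lowest without FosKO 0 h replicate 1, and was not called in any of these. It was called with quantile normalisation, with median centring and with the replicate block within genotype. The difference between these responses was -0.63 at 2 h (SE 0.15, limma adjusted p = 0.00489), the one member called lower among the 8, where 7.7% of tested genes were. Stat2, outside the family, also went down and then up in libraries labelled LysM-Cre, with changes of -0.42, -0.67 and 0.36 at the 3 times, each called, against -0.15, -0.53 (called) and 0.00 in those labelled FosKO, and its difference in response at 2 h was not called (-0.36, limma adjusted p = 0.103). The difference for Oas1b ran from -0.72 to -0.57 over all 21 alternatives and was called in each. At 0.5 h and 1 h the difference in response of Oas1b was 0.34 (adjusted p = 0.740) and 0.10 (adjusted p = 0.956), the latter 0.0075 (without FosKO 1 h replicate 3) to 0.21 (without FosKO 1 h replicate 1) on leaving out single libraries. Limma called no member at those times, 2 and 1 having an unadjusted p under 0.05, and the share of tested genes called at 0.5 h was 0.115%.

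Ordered by level, the 8 groups of Oas3 and Oas1c split by genotype, with all 4 groups labelled LysM-Cre below all 4 labelled FosKO, and so did those of Oas1a, Oas1g, Oas2 and Oasl2. In Oas1g, Oas2 and Oasl2, however, the control group at 2 h overlapped its neighbour, the group labelled FosKO at 1 h. Oasl1 and Oas1b were the 2 members in which the control at 2 h passed groups labelled FosKO. For Oasl1 it stood at 12.07 ± 0.20, above those at 0, 0.5 and 1 h without overlap, and for Oas1b at 8.14 ± 0.06, where it overlapped those at 0, 0.5 and 2 h.

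After the group means were removed, values of the members still went together between libraries. Over the 15 pairs that exclude Oas1b and Oas1c, Pearson r across the 24 libraries ran from 0.74 to 0.94, the highest for Oas3 with Oasl2, and over the 13 other pairs from 0.25 to 0.67. These points share libraries and normalisation, those of Oas1a and Oas1g may also share reads, and they are given as a description. Outside the family, the 5 genes whose values over the 24 libraries were most like the family mean were Pyhin1 (r = 0.992), Pydc3 (0.990), Irf7 (0.990), Ifit3 (0.990) and Uba7 (0.989). The closest gene to Oasl1 was Ifit1 and to Oasl2 Ifit3 (r = 0.996 each), to Oas3 Ly6e (0.994), to Oas1a Parp12 (0.991), to Oas1g Cp (0.988) and to Oas2 Tbc1d13 (0.984). For Oas1c it was Fcgr1 (0.958) and for Oas1b 9330175E14Rik (0.939). Genes with these patterns were picked from all tested genes for their likeness.

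Other genes of the 2-5A pathway gave smaller differences than most of the family. Of 9 other pathway and Oas genes listed, 6 were tested. Counts in this and the next lists stand beside 19.5% of tested genes called higher and 15.9% called lower in libraries labelled FosKO at 0 h, and 24.4% and 20.3% at 2 h. At 0 h Akap7 (0.27, adjusted p = 0.00521) and Enpp1 (0.23, adjusted p = 0.0186), both known to encode proteins that can cleave 2-5A, were higher. None was called lower by limma, 1 having an unadjusted p under 0.05, and the list's median was 0.07. At 2 h 1 was higher (Akap7, 0.34) and 2 lower (Abce1 and Pde12, the latter a 2-5A nuclease, both -0.19). Akap7 was not called at the times between (0.06 at 0.5 h, limma adjusted p = 0.542, and -0.01 at 1 h, adjusted p = 0.965). Oas1h, from the same cluster, was tested and gave 0.10 at 0 h (adjusted p = 0.641).

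Most of the other listed sensors and effectors of double-stranded RNA did go with the family. Of 12 listed, 10 were higher in libraries labelled FosKO at 0 h and 1 lower, with a median of 0.52, and at 2 h 9 were higher and 1 lower, with a median of 0.63. The cytosolic RNA sensors Ddx58 (RIG-I) and Ifih1 (MDA5) were 0.92 and 0.83 higher at 0 h, Dhx58, their relative, 0.72, and Eif2ak2, the kinase PKR, 0.59. Zbp1, a sensor of Z-form nucleic acid, was the largest at 1.43. Dicer1 was not called at 0 h (-0.02) or at 2 h (-0.06). Prkra, an activator of PKR, was the one called lower at 0 h, with a log2 difference of -0.10 (limma adjusted p = 0.0477), and gave 0.00 at 2 h. The one called lower at 2 h was Mavs, the adaptor of RIG-I and MDA5, at -0.23 (adjusted p = 2.91e-06), which had been higher at 0 h by 0.08 (adjusted p = 0.0341).

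Among 14 genes of type I IFN signalling up to ISGF3, 10 were higher at 0 h, with a median of 0.29, and none was called lower by limma, nor had an unadjusted p under 0.05 in that direction, while 11 were higher and 2 lower at 2 h, with a median of 0.47. Ifnb1, which encodes IFN-β, gave 6.08 ± 0.06 in libraries labelled LysM-Cre and 6.17 ± 0.08 in those labelled FosKO at 0 h. Its difference of 0.10 was not called (SE 0.12, limma adjusted p = 0.609). Its levels were lowest at 0 h in each genotype, and in values of this kind differences of genes with few reads may be understated. Whether IFN-β had a part in the Oas differences at 0 h was not tested. At 2 h it was at 9.88 ± 0.08 and 12.89 ± 0.10, a difference of 3.00 (adjusted p = 3.01e-13). For 2 subunits of ISGF3 the differences at 0 h were 0.93 for Stat2 and 0.24 for Irf9, and Irf7, an amplifier of IFN expression, gave 1.20. At 2 h they were 0.57, 0.23 and 1.05, all called at both times. Lower at 2 h were both chains of the IFN receptor, Ifnar1 (-0.40) and Ifnar2 (-0.21).

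**Figure D4:**
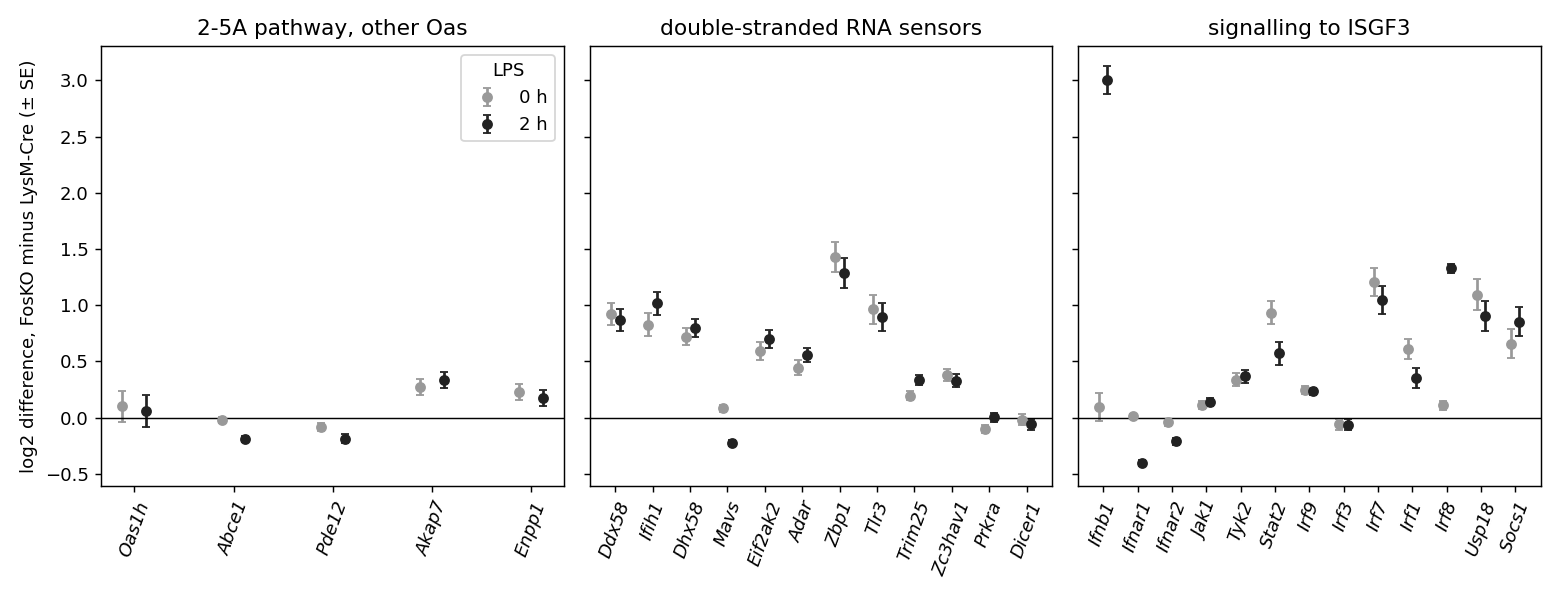
Log2 difference between libraries labelled FosKO and LysM-Cre at 0 h (grey) and 2 h (black) for tested genes of 3 lists, with bars of 1 SE from limma and 3 libraries in each group. Akap7 lies at 0.27 at 0 h while Zbp1 lies at 1.43, and Ifnb1 goes from 0.10 to 3.00.

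A last list held 8 genes taken as neighbours of the Oas genes, of which 4 were tested (Rasal1, P2rx7, Ptpn11 and Sppl3), and of these 4 only the position of Rasal1, beside Dtx1 at 120648812 to 120679597, was looked up here. At 0 h 1 of these was lower, Rasal1, by a log2 difference of -0.51 (SE 0.10, limma adjusted p = 0.000468), and none was called higher, 1 having an unadjusted p under 0.05 in that direction, with a median of 0.01. At 2 h all 4 were called, P2rx7 (0.21) and Ptpn11 (0.08) higher and Rasal1 (-0.32) and Sppl3 (-0.10) lower. Whether the region as a whole differed between the genotypes was not tested.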

How the data were processed

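RNA-seq of 24 BMDM libraries (8 groups of 3) was used. Per the study's methods, libraries were strand-specific and single-end. The submitters' processing notes name STAR 2.5.2a, RSEM 1.2.31, DESeq2 1.16.1 and GRCm38. The methods give the same STAR and RSEM versions but an older DESeq2, and RefSeq genes of mm10, whereas the table carries Ensembl identifiers, so which annotation was counted is not known here. The deposited table holds log2 values already normalised by the authors. These resemble a regularised log, so differences of genes with few reads may be understated. The study's methods state a typical sequencing yield, but the depth of each library is not known here.

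Genes with 2 to the power of the value of at least 5 in at least 3 libraries were tested, 13901 in all. The values were fitted with limma 3.58.1 (R 4.3.3), with 8 group means, 16 residual degrees of freedom, empirical Bayes with a trend, and 13 comparisons, and p-values were adjusted by Benjamini-Hochberg over all tested genes. The design had foreseen linear values, so the pseudocount of 1 became an alternative. The fit was tested on simulated data. Alternatives were no filter or a floor of 20, the pseudocount, quantile normalisation, median centring, no trend, only the groups compared, replicate blocks, the 18S set as a term or its high set alone, and leaving out each library.

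The members and the gene lists were chosen with earlier results of these data known. Named besides the members were up to 4 called genes of a list per comparison, Ifnb1, Stat2, Irf9, Irf7, Fos and Lyz2, and the genes most like the members by Pearson r. Some genes of the rule and lists are counted but not reported by name here. Further list members named for a contrast were chosen after their values were seen. Coordinates and transcript lengths came from GENCODE (release for GRCm38), and read sharing was judged from 50-base windows, since the read length was not given in the sources used here.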

Additional observations from a re-analysis of the deposited data

Results flagged for a closer look

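The response of Oas1b to 2 h of LPS differed between the genotypes. The log2 change from 0 h was 0.84 in libraries labelled LysM-Cre and 0.20 in those labelled FosKO (0.78 to 0.90 and 0.12 to 0.26 without single libraries), and the difference between these changes, tested as an interaction by limma, was -0.63 (SE 0.15, adjusted p = 0.00489). All 3 control libraries at 2 h lay above all 3 at 0 h, and so did the 3 labelled FosKO. The adjusted p ran from 0.000683 to 0.0171 over the 21 alternatives.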

How the results depend on the processing

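None of the member counts between genotypes, nor any of their 32 member differences, changed direction or call under the alternatives run, and the 3 differences in response gave the same member counts throughout. Counts of members called after LPS did move. In libraries labelled LysM-Cre, the 2 members called lower at 1 h were 1 with no filter, median centring, no trend, the high 18S set alone or the 18S term, and 5 with quantile normalisation, and the 1 called higher became 0 in the high 18S set alone, which left 1 library at 1 h. Those called higher at 2 h went from 6 to 3 with quantile normalisation. In libraries labelled FosKO, the 1 called lower at 1 h became 5 with quantile normalisation, and the 5 called higher at 2 h became 3, or 7 with median centring. The 1 called lower at 2 h became 0 with no filter, median centring or only the groups compared. Leaving out single libraries gave 0 to 1 called lower at 0.5 h, 0 to 1 higher and 1 to 2 lower at 1 h and 5 to 6 higher and 0 to 1 lower at 2 h in libraries labelled LysM-Cre, and 1 to 2 lower at 1 h (2 without FosKO 0 h replicate 1) and 5 to 6 higher and 0 to 1 lower at 2 h in those labelled FosKO.

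Member values were recomputed for the 63 differences and changes kept for the text, a choice made after they were seen. Counting each value once under each alternative gave 1007 recomputed values, of which 952 kept direction and call, 35 lost the call, 12 gained one and 8 changed sign. For all 104 member values it gave 1800, of which 66 changed sign, each from a value that had not been called. Oas3 at 2 h in libraries labelled LysM-Cre was 0.0204 with median centring and -0.0465 to 0.0392 without single libraries, and in those labelled FosKO it was -0.31 with quantile normalisation. Oas1b at 0.5 h in libraries labelled FosKO was 0.0265 in the high 18S set alone, 0.0119 with the 18S term and -0.151 to 0.0265 without single libraries. The cause was not tested.

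With the replicate number as a replicate block, 2 members (Oas1b and also Oas2, -0.22) were called lower at 1 h in libraries labelled FosKO, as with the replicate block within genotype, which gave 0 lower at 2 h (Oas1c lost its call). At 2 h Oas3 (0.16) was called higher under both blocks and Oas1b (0.20) under the second, making 6 and 7 members. Same-numbered libraries of the 2 genotypes at one time correlated at -0.53 to 0.31 (12 pairs, 2 over 0.1), so the numbers were not taken to pair them. Within a genotype, 12 of 36 pairs of one number at different times were over 0.1 (highest 0.71). For pairs of different numbers it was 4 of 72. Among libraries labelled FosKO, replicate 3 had the highest mean deviation of the members at each time (0.13, 0.21, 0.08 and 0.07). These are a hint from the data and not from the design. Among all called genes, quantile normalisation moved the share that was higher between genotypes (55.1% became 45.3% at 0 h, 51.9% became 45.6% at 0.5 h, 53.1% became 42.8% at 1 h, and 54.6% became 43.0% at 2 h, where median centring gave 62.6%). For LPS it moved from 70.3% to 48.3%, 53.8% to 37.6% and 50.3% to 40.0% in libraries labelled LysM-Cre and from 75.2% to 50.5%, 54.0% to 35.3% and 52.5% to 39.2% in those labelled FosKO, and median centring moved that of the difference in response at 2 h from 48.5% to 59.1%.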
